A study of Homo sapiens with 6 samples.

Results

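Death and decoy receptors of the tumour necrosis factor (TNF) receptor superfamily were followed in U87 cells, an established human glioblastoma line, with and without a dominant negative form of the endoplasmic reticulum stress sensor IRE1alpha. The members were 10 named genes, taken as every Affymetrix probe set whose only gene symbol was one of them. 9 of the 10 genes had such a probe set, and together they had 19 of the 22215 probe sets other than controls on the array. TNFRSF10A had none and was not analysed here, and 2 further probe sets that list TNFRSF10C together with a second gene were left out.

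Death receptors carry a cytoplasmic death domain that, once ligand has clustered the receptor, gathers FADD or TRADD and activates initiator caspases. Decoy receptors bind the same ligands but lack a working death domain, or are secreted, and so compete for ligand. IRE1alpha splices XBP1 messenger RNA during stress and can also cut other messenger RNAs, a process called regulated IRE1-dependent decay. TNFRSF10B messenger RNA has been reported as one of its substrates, and the stress factor CHOP, encoded by DDIT3, is known to induce TNFRSF10B transcription.

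The IRE1dn group was the U87 IRE1.NCK DN clone, which expresses a dominant negative IRE1alpha transgene, on 3 arrays. The ctrl group was U87 cells with the empty plasmid, which the labels describe in the plural as clones, also on 3 arrays. Both groups were kept for 16 h in medium with 10% serum before RNA was taken, and no stress-inducing agent is named. Nothing in the labels ties the replicates to separate cultures, and the p-values therefore reflect the scatter among these arrays, which may be technical. A difference between the groups cannot be told apart from a difference between clones.

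Signals were in the authors' scaled units, and 13329 probe sets whose mean lay above a filter level of 7.55 units were tested. Array medians ran from 18.4 to 21.03 units. Log2 signals correlated at 0.973 to 0.980 among IRE1dn arrays, 0.943 to 0.957 among ctrl arrays and 0.867 to 0.907 between the groups, and the median SD of a probe set was 0.20 in IRE1dn and 0.30 in ctrl on the log2 scale. The glioma markers VIM, CD44 and CHI3L1 were bright on all arrays. CHI3L1 read 1632, 1462 and 1815 units in IRE1dn and 802, 245 and 743 units in ctrl (log2 change 1.63, SE 0.37; limma adjusted p = 0.010). In contrast, the astrocyte marker GFAP stayed at 1.90 units or less and S100B at 0.586 units or less, below the filter level. SOX2 read 1.65 to 8.28 units and did not pass the filter. NES read 40.8, 27.8 and 34.7 units in IRE1dn and 9.52, 9.66 and 44.9 units in ctrl (limma adjusted p = 0.16). The immune markers summed to 63.7 to 73.7 units in IRE1dn and 27.4 to 55.7 units in ctrl, mostly through CSF1R. CSF1R was itself called higher in IRE1dn (log2 change 0.88, SE 0.29; limma adjusted p = 0.043), while the leukocyte marker PTPRC lay below the filter level on every array. The neuronal and oligodendroglial markers summed to 236 to 294 units in IRE1dn and 118 to 271 units in ctrl, mostly through SNAP25, which did not pass (limma adjusted p = 0.24). The endothelial markers summed to 17.5 to 21.0 units in IRE1dn and 20.7 to 27.7 units in ctrl. The epithelial markers summed to 10.1 to 14.3 units in IRE1dn and 13.8 to 19.1 units in ctrl. EPCAM, which did not pass the filter, was lower in IRE1dn in the fit without it (log2 change -1.40, limma adjusted p = 0.030). KRT18 went the other way there without passing (1.06, limma adjusted p = 0.13). The part of these markers in the receptor results was not tested. IRE1dn array 3 stood apart in its 3′ to 5′ signal ratio of ACTB, 1.64 against 1.09 to 1.21 on the other arrays, and in its hybridisation spike-in signal, 1.73 times the ctrl mean against 0.849 to 1.05 times on the others. Receptor and pathway gene calls that ended without this array are named as such, whereas the marker calls were not examined without it. ERN1, which encodes IRE1alpha, had signals of 9.89, 10.5 and 12.9 units in IRE1dn and 11.0, 13.97 and 11.9 units in ctrl (log2 change -0.13, SE 0.29; limma adjusted p = 0.77). Its 1 probe set need not lie in the transgene, so it does not check the labels.

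The receptors moved in both directions. Of the 19 member probe sets 14 passed the filter, and 10 of these passed limma's threshold (adjusted p under 0.05), 5 higher and 5 lower in IRE1dn. Over all tested probe sets 29.1% passed, 15.7% higher and 13.4% lower. The 5 higher ones measured the death receptor TNFRSF21 and the decoy receptors TNFRSF10D and TNFRSF11B. The 5 lower ones measured TNFRSF10B, TNFRSF12A and, in 1 of 4 probe sets, FAS. The 3 arrays of each group did not overlap for 10 of the 14 tested member probe sets, against 46% of all tested probe sets (24.9% with IRE1dn above and 21.1% with IRE1dn below).

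**Figure D1:**
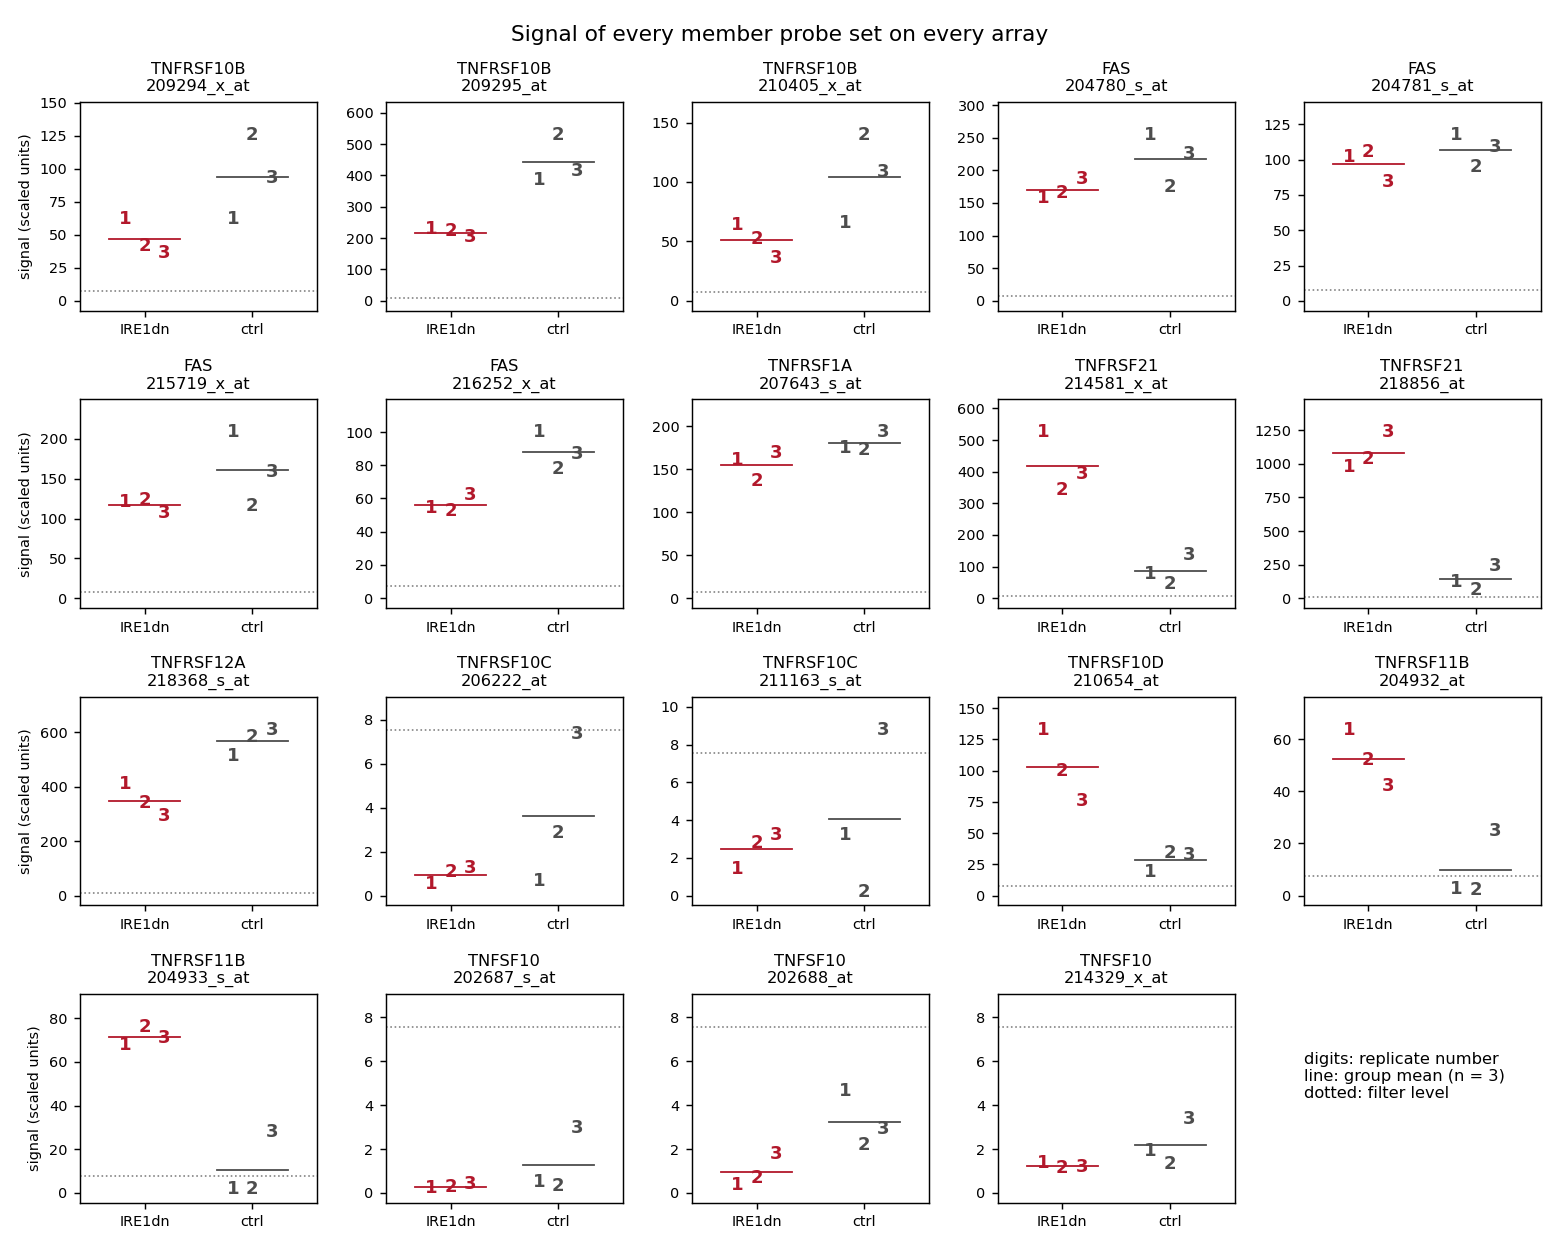
Signal in scaled units (vertical axis, linear) of all 19 member probe sets on the 3 IRE1dn arrays (left, red) and the 3 ctrl arrays (right, grey). Digits give the replicate number, lines the group means and the dotted line the filter level of 7.55 units. The TNFRSF21, TNFRSF10D and TNFRSF11B panels have all IRE1dn arrays above all ctrl arrays, and the TNFRSF10C and TNFSF10 panels lie at or near the filter level or below it.

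TNFRSF10B, the TRAIL receptor DR5, was lower in IRE1dn cells in all 3 of its probe sets. Probe set 209295_at, the brightest, read 228, 221 and 203 units in IRE1dn and 386, 529 and 416 units in ctrl. The highest IRE1dn array lay well below the lowest ctrl array, and the group means were 218 ± 12.8 and 444 ± 75.4 units (SD, n = 3 each). The log2 change was -1.01 (SE 0.18, 95% interval -1.40 to -0.62; limma adjusted p = 0.0029). Fewer cells with the transcript and less transcript per cell cannot be told apart in such bulk RNA. The probe set kept its call under all 16 alternative settings, with changes between -1.10 and -0.88.

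The other probe sets of TNFRSF10B gave changes of nearly the same size with much more scatter. Probe set 210405_x_at read 63.8, 52.1 and 36.3 units in IRE1dn and 65.7, 140 and 108 units in ctrl (log2 change -0.99, SE 0.30; limma adjusted p = 0.035). Probe set 209294_x_at read 62.2, 41.2 and 36.4 units in IRE1dn and 62.1, 126 and 92.6 units in ctrl (log2 change -0.96, SE 0.30; limma adjusted p = 0.035). In this one the groups touched, because IRE1dn array 1 lay just above ctrl array 1, and in 210405_x_at these same arrays lay close together. Both probe sets are of the _x_ type, which can bind related transcripts. Their calls ended without IRE1dn array 2 (limma adjusted p of 0.087 for 210405_x_at and 0.12 for 209294_x_at), IRE1dn array 3 (0.14 and 0.13), ctrl array 2 (0.11 for both) or ctrl array 3 (0.065 and 0.058). Both calls also ended in the fit without the filter (limma adjusted p = 0.061 for both). That of 210405_x_at ended with eBayes without a trend (0.051), and that of 209294_x_at with a replicate block (0.056).

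FAS, the receptor of the FAS ligand, was lower in value in all 4 probe sets, and 1 passed. Probe set 216252_x_at read 54.1, 52.7 and 61.9 units in IRE1dn and 99.8, 77.8 and 86.8 units in ctrl (log2 change -0.63, SE 0.20; limma adjusted p = 0.038). The groups did not overlap there, but the call ended under 7 of 15 alternatives, among them leaving out any single array except ctrl array 2 (limma adjusted p of 0.052 to 0.15). Probe set 204780_s_at, the brightest, read 158, 165 and 187 units in IRE1dn and 254, 175 and 224 units in ctrl, so IRE1dn array 3 lay above ctrl array 2. Its log2 change was -0.34 (95% interval -0.77 to 0.09; limma adjusted p = 0.21). The remaining probe sets, 204781_s_at and 215719_x_at, changed by -0.14 (95% interval -0.57 to 0.29) and -0.41 (95% interval -0.92 to 0.10), with overlapping groups. With the mean of the 4 probe sets as the value of the gene, the log2 change of FAS was -0.38 (SE 0.18; limma adjusted p = 0.14).

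TNFRSF1A, the main receptor for soluble TNF, was slightly lower in value and did not pass. Its signals were 161, 137 and 169 units in IRE1dn and 175, 173 and 193 units in ctrl. All IRE1dn arrays lay below all ctrl arrays, but by a small margin: the log2 change was -0.22 (SE 0.18, 95% interval -0.61 to 0.17; limma adjusted p = 0.38). The interval leaves room for a fall of up to 0.61 on the log2 scale.

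TNFRSF21, death receptor 6, rose strongly in IRE1dn cells in both of its probe sets. Probe set 218856_at read 979.9, 1039.7 and 1235 units in IRE1dn and 121, 60.9 and 237 units in ctrl. The lowest IRE1dn array was far above the highest ctrl array, and the log2 change was 3.14 (SE 0.39, 95% interval 2.28 to 3.998; limma adjusted p = 0.00044). This was the 67th highest change of the 13329 probe sets tested. Probe set 214581_x_at read 524, 342 and 392 units in IRE1dn and 75.5, 43.7 and 136 units in ctrl (log2 change 2.40, SE 0.35; limma adjusted p = 0.0012). In both probe sets ctrl array 3 was the highest control and ctrl array 2 the lowest, and both calls held under every alternative tried, 16 for 218856_at and 15 for 214581_x_at.

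**Figure D2:**
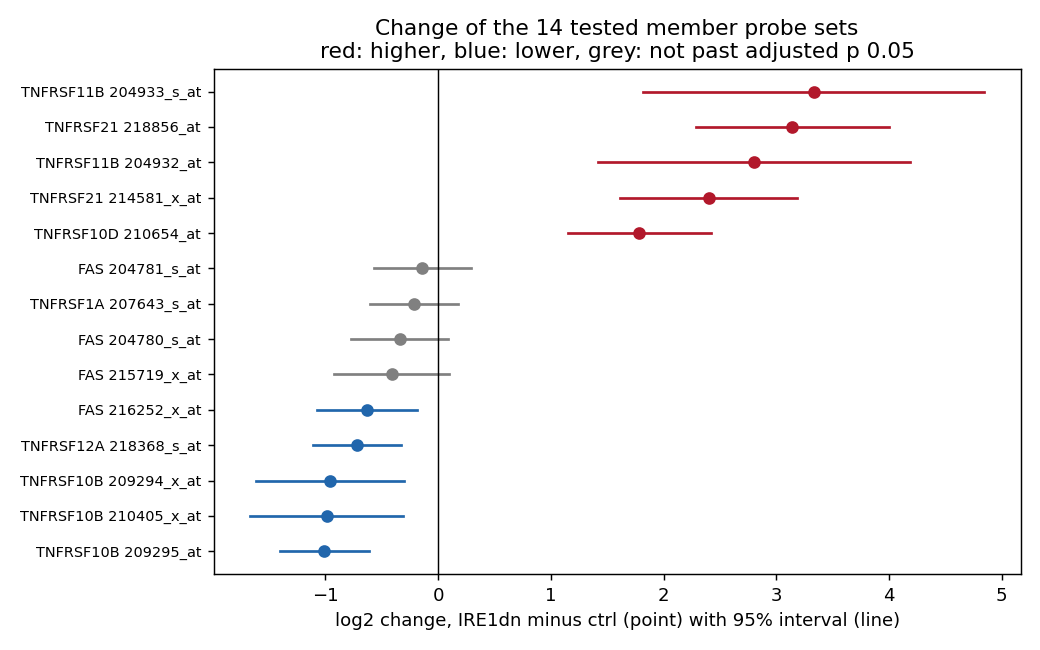
Log2 change, IRE1dn minus ctrl (horizontal axis), of the 14 tested member probe sets, with limma's 95% intervals as lines. Red probe sets passed as higher, blue as lower, and grey did not pass an adjusted p of 0.05. TNFRSF11B, TNFRSF21 and TNFRSF10D lie between 1.79 and 3.33, whereas the TNFRSF10B probe sets lie between -1.01 and -0.96.

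Start site sequence is shown for TNFRSF21, which had the largest change among the bright members, and for TNFRSF1A, which did not pass. Each run is the 250 bases before the RefSeq start, 5′ to 3′ on the strand of the gene (GRCh38.p14, minus strand for both), at chr6:47309906-47310155 for TNFRSF21 and chr12:6342077-6342326 for TNFRSF1A. Capitals mark matches, on either strand, to the GC box GGGCGG, to ACGTG, the core of hypoxia response elements and of XBP1-type elements and to the AP-1 site TGACTCA.
TNFRSF21: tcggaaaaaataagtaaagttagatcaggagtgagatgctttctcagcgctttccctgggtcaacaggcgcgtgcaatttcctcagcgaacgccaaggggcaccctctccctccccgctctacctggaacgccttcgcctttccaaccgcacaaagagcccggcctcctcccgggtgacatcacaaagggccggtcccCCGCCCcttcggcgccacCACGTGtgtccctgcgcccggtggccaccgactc
TNFRSF1A: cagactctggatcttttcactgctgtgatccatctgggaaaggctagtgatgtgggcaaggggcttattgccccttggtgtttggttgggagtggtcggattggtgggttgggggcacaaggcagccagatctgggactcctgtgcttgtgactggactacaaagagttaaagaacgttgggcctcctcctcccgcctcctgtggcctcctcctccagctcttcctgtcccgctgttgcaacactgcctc
The TNFRSF21 window held 1 GC box, 52 bases before the start, and 2 overlapping ACGTG matches on opposite strands that form CACGTG. The TNFRSF1A window held none of the 3 motifs. FAS, which passed in 1 of 4 probe sets, has several start windows, not shown here. Each of them held the GC box, and the one at chr10:88991181-88991430 also held ACGTG. The other FAS windows overlap one another, and their GC box is the same site. The window of TNFSF10, which was below the filter level, held none. Of 35116 such windows in the RefSeq table, 42.6% held the GC box, 18.5% ACGTG and 4.2% TGACTCA. Windows of the other members, among them TNFRSF10B, TNFRSF10D and TNFRSF11B, were not examined here. A match is a description of the letters only.

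TNFRSF12A, the TWEAK receptor Fn14, has no death domain and signals through TRAF adaptors. It was lower in IRE1dn, with 409, 339 and 291 units, against 512, 582 and 608 units in ctrl. The groups did not overlap, and the log2 change was -0.72 (SE 0.18, 95% interval -1.11 to -0.33; limma adjusted p = 0.014). The call ended without IRE1dn array 2 (limma adjusted p = 0.062) or IRE1dn array 3 (0.059).

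Of the decoy receptors, TNFRSF10D and TNFRSF11B rose. TNFRSF10D, the TRAIL receptor DcR2 with a truncated death domain, read 133, 99.5 and 75.6 units in IRE1dn and 19.2, 33.9 and 32.6 units in ctrl. Every IRE1dn array was above every ctrl array, and the log2 change was 1.79 (SE 0.29, 95% interval 1.150 to 2.42; limma adjusted p = 0.0018). The call held under all 16 alternatives, with changes of 1.40 to 1.98.

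TNFRSF11B, osteoprotegerin, is a secreted receptor that binds RANKL and TRAIL. Probe set 204933_s_at read 67.8, 75.9 and 70.9 units in IRE1dn and 1.98, 1.72 and 27.9 units in ctrl (log2 change 3.33, SE 0.68, 95% interval 1.82 to 4.84; limma adjusted p = 0.0058). Probe set 204932_at read 63.7, 51.9 and 42.2 units in IRE1dn and 2.58, 2.20 and 24.9 units in ctrl (log2 change 2.80, SE 0.62; limma adjusted p = 0.0087). IRE1dn arrays were all above ctrl arrays, but the controls split: ctrl arrays 1 and 2 lay below the filter level and ctrl array 3 well above it. Without ctrl array 3 the changes were 4.34 and 3.70, and with a pseudocount of 16 they were 1.86 and 1.503, so the direction is measured better than the size. The mean of the gene passed the filter through its IRE1dn arrays and ctrl array 3.

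Ctrl array 3 was also the highest control for TNFRSF21, TNFRSF12A and TNFRSF1A. Among all probe sets called higher in IRE1dn, ctrl array 3 was the highest control in 42% and ctrl arrays 1 and 2 in 20.7% and 37.2%. Among those called lower, the shares were 25.7% for ctrl array 3 and 43.6% and 30.7% for ctrl arrays 1 and 2. The part of this array in the TNFRSF11B and TNFRSF21 results beyond the values given was not tested.

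TNFRSF10C, the membrane-anchored TRAIL decoy DcR1, and the ligand TNFSF10, which encodes TRAIL itself, had no probe set above the filter level. Their 5 probe sets read between 0.208 and 8.79 units over the 6 arrays, and no presence or absence is called from such signals. TNFRSF10C read 0.525, 1.06 and 1.26 units in IRE1dn and 0.641, 2.83 and 7.38 units in ctrl in probe set 206222_at. Its probe set 211163_s_at read 1.41, 2.78 and 3.19 units in IRE1dn and 3.19, 0.208 and 8.79 units in ctrl. The groups overlapped in both.

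TNFSF10 read 0.373, 0.680 and 1.78 units in IRE1dn and 4.65, 2.17 and 2.91 units in ctrl in probe set 202688_at. IRE1dn arrays were lower there without overlap, yet the log2 change of -0.89 did not pass in a fit without the filter (SE 0.33; limma adjusted p = 0.11). The other probe sets of TNFSF10, 202687_s_at and 214329_x_at, changed by -0.45 and -0.38 in that fit (limma adjusted p of 0.42 and 0.46).

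The rest of the superfamily was mostly dim. Of 20 other receptors 15 were on the array and 7 were tested, of which 0 rose and 1 fell in limma (median log2 change -0.31). Over all 7808 genes tested with 1 probe set each, 16.2% were called higher and 15% lower, with a median of 0.01. The one that fell was TNFRSF1B, the second TNF receptor, with 11.5, 11.9 and 16.9 units in IRE1dn and 32.5, 28.3 and 42.8 units in ctrl (log2 change -1.26, SE 0.28; limma adjusted p = 0.0083). TNFRSF9, a T cell costimulatory receptor chosen after its values were seen, changed by -1.44 without passing (limma adjusted p = 0.054).

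Of 17 other TNF family ligands 14 were on the array but 2 were tested, 0 rose and 1 fell. The shares over all genes tested were 16.2% higher and 15% lower. CD70, the ligand of CD27, read 43.0, 47.2 and 28.4 units in IRE1dn and 349, 191 and 93.5 units in ctrl. Its groups were well apart (log2 change -2.20, SE 0.41; limma adjusted p = 0.0038). The other tested ligand, TNFSF9, changed by -0.72 without passing (limma adjusted p = 0.051). TNF read at most 1.04 units in IRE1dn and 2.94 units in ctrl, and FASLG at most 4.39 units in IRE1dn and 4.65 units in ctrl, both under the filter level.

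Downstream of the receptors, 11 of 15 listed death signalling genes were tested, of which 0 rose and 3 fell (median log2 change -0.25). Among all genes tested 16.2% were called higher and 15% lower. BID, which links caspase-8 to mitochondria, read 128, 101 and 112 units in IRE1dn and 329, 200 and 296 units in ctrl (log2 change -1.23, SE 0.22; limma adjusted p = 0.0032). BAX, a pore-forming BCL2 family protein, fell by 1.34 (SE 0.31; limma adjusted p = 0.0099), and TRADD, the adaptor of TNFRSF1A, fell by 1.147 (SE 0.19; limma adjusted p = 0.0020). A second tested probe set of each of the 3 genes was also called lower. The adaptor FADD and the initiator caspase CASP8, chosen after their values were seen, changed by -0.07 (SE 0.21) and -0.34 (SE 0.22) without passing (limma adjusted p of 0.84 and 0.27).

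Of 16 listed apoptosis inhibitors and TRAF adaptors 12 were tested, of which 1 rose and 3 fell (median log2 change 0.11), against 16.2% higher and 15% lower over all genes tested. TNFAIP3, the NF-kB feedback inhibitor A20, read 26.3, 16.7 and 19.1 units in IRE1dn and 72.6, 83.9 and 59.8 units in ctrl (log2 change -1.73, SE 0.25; limma adjusted p = 0.0011). XIAP, a caspase inhibitor, fell by 1.16 (SE 0.31, limma adjusted p = 0.018). That call ended without IRE1dn array 3 (0.068), without ctrl array 2 (0.063) and in the fit without the filter (0.051). BCL2, an inhibitor of mitochondrial permeabilisation, rose by 1.41 (SE 0.31; limma adjusted p = 0.0076), with ctrl arrays below the filter level and a change of 0.66 with a pseudocount of 16. This probe set, 203685_at, passed the filter only through its IRE1dn arrays. The BCL2 probe sets disagreed, since 207005_s_at, below the filter level on every array, read 0.547, 1.92 and 0.236 units in IRE1dn and 4.52, 4.42 and 3.43 units in ctrl (log2 change -1.19 without the filter; limma adjusted p = 0.041). In its other probe sets, 203684_s_at and 207004_at, the groups overlapped.

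CFLAR encodes FLIP, which blocks caspase-8 at the death receptor complex. Its brightest probe set, 209939_x_at, read 110, 116 and 102 units in IRE1dn and 245, 232 and 236 units in ctrl (log2 change -1.11, SE 0.17; limma adjusted p = 0.0014). CFLAR had 9 tested probe sets, and they disagreed: 2 were called lower and 7 did not pass, with changes of the 7 between -0.09 and 0.31. The CFLAR call therefore holds for those 2 probe sets only.

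**Figure D3:**
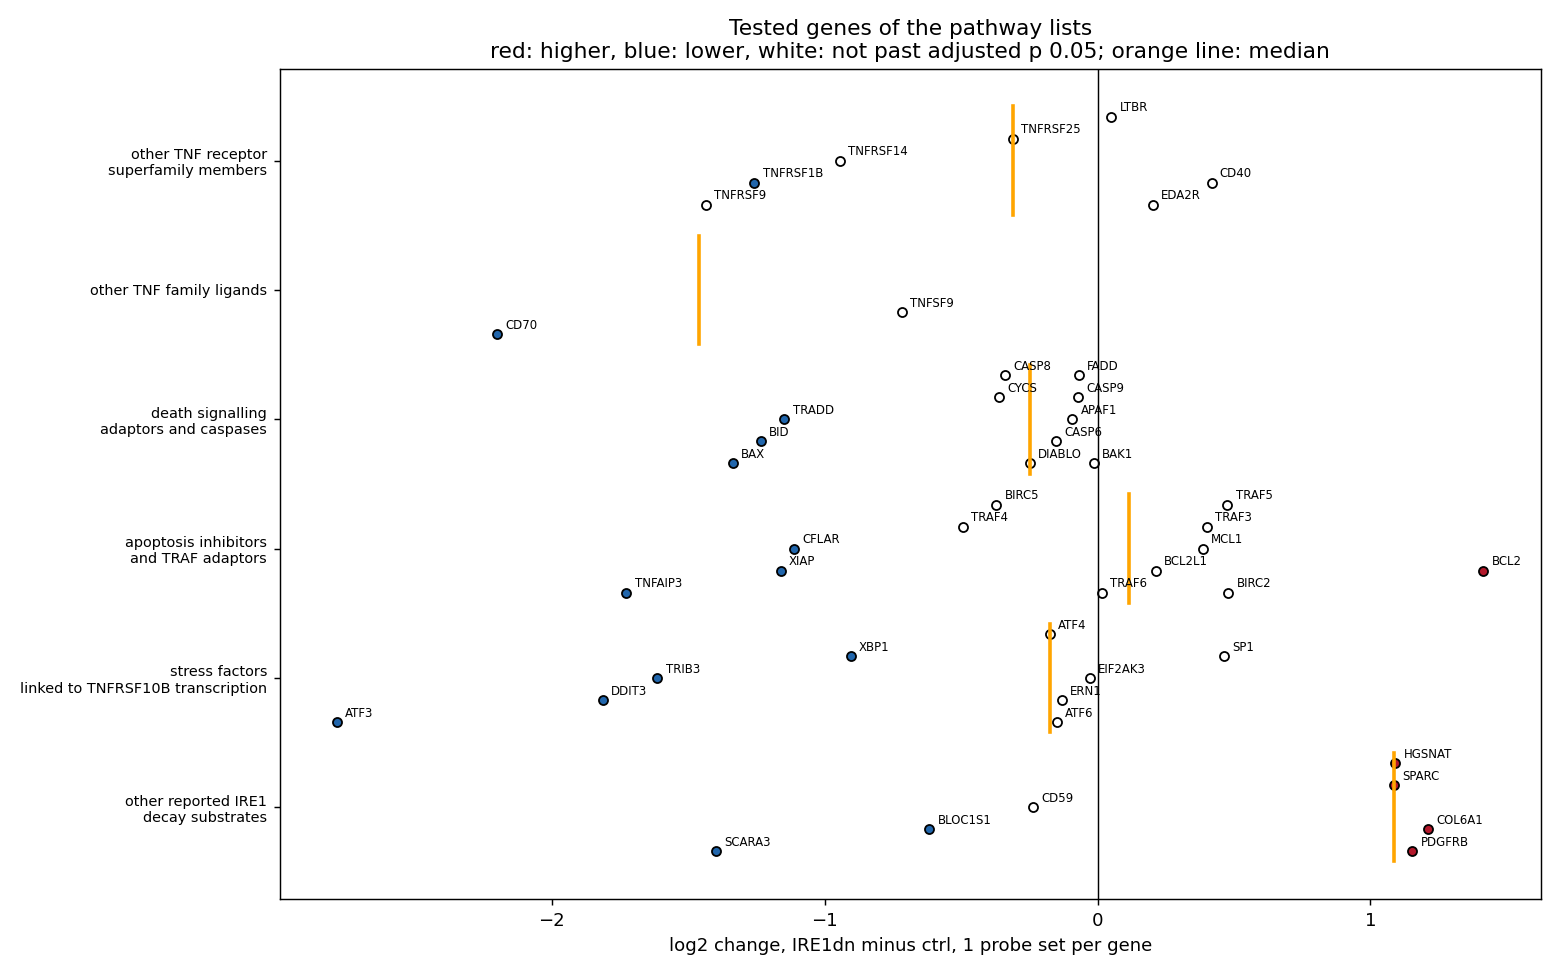
Log2 change, IRE1dn minus ctrl (horizontal axis), of the tested genes of 6 pathway lists, with 1 probe set per gene and the median of each list as an orange line. Blue genes were called lower, red ones higher, and white ones did not pass an adjusted p of 0.05. Death signalling genes include 3 called lower, BAX, BID and TRADD, and 0 called higher, of 11 tested. Over all genes tested 15% were called lower and 16.2% higher.

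The list of stress factors linked to TNFRSF10B transcription also holds ERN1 itself and the CHOP target TRIB3. Its tested genes were called lower or did not pass. Of 10 listed genes 9 were tested, of which 0 rose and 4 fell (median log2 change -0.17). Over all genes tested 16.2% were called higher and 15% lower. DDIT3 read 37.3, 60.6 and 56.1 units in IRE1dn and 63.8, 351 and 262 units in ctrl (log2 change -1.81, SE 0.52; limma adjusted p = 0.026). Ctrl array 1, the control with the lowest DDIT3 signal, was also the lowest control in each TNFRSF10B probe set, and ctrl array 2 was the highest for both genes. TRIB3 and ATF3 had the same order of controls, whereas XBP1 was highest on ctrl array 1. Among the IRE1dn arrays the order differed: array 1 had the lowest DDIT3 signal but the highest signal in each TNFRSF10B probe set. These comparisons were chosen after the values were seen, and with 3 arrays in each group no relation was tested.

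TRIB3, a target of CHOP, read 22.6, 25.9 and 28.7 units in IRE1dn and 33.2, 231 and 70.5 units in ctrl (log2 change -1.61, SE 0.54; limma adjusted p = 0.048). The DDIT3 call ended without any single array except ctrl array 1 (limma adjusted p of 0.053 to 0.088), and so did the TRIB3 call (0.059 to 0.12). The TRIB3 call also ended in the fit without the filter (limma adjusted p = 0.088), and it held under 8 of 16 alternatives. Without ctrl array 2 the changes were -1.34 for DDIT3 and -0.88 for TRIB3. ATF3 changed by -2.79 (SE 0.24) and XBP1 by -0.90 (SE 0.18), and these held under all 16 alternatives. ATF4, EIF2AK3, ATF6 and SP1 changed by -0.17, -0.03, -0.15 and 0.46 without passing (limma adjusted p of 0.58, 0.95, 0.75 and 0.24).

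Other reported IRE1 decay substrates did not share 1 direction. Several of these are known from mouse or other cells rather than from this line. Of 9 listed genes 7 were tested, of which 4 rose and 2 fell (median log2 change 1.09). For all genes tested the shares were 16.2% higher and 15% lower. SCARA3, a scavenger receptor, read 37.7, 26.9 and 16.99 units in IRE1dn and 73.1, 64.8 and 76.3 units in ctrl (log2 change -1.40, SE 0.28; limma adjusted p = 0.0056). BLOC1S1, a subunit of a lysosomal trafficking complex chosen after its values were seen, fell by 0.62 (SE 0.20; limma adjusted p = 0.045), and this call ended under 7 of 16 alternatives, including the omission of any single array except ctrl array 2 (0.052 to 0.17).

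The collagen VI chain COL6A1, the growth factor receptor PDGFRB, the lysosomal enzyme HGSNAT and, chosen after its values were seen, the matrix protein SPARC rose by 1.21, 1.153, 1.09 and 1.09 on the log2 scale (limma adjusted p of 0.0012, 0.013, 0.0015 and 0.0015). The PDGFRB call ended without IRE1dn array 3 (limma adjusted p = 0.053). TNFRSF10B, with -1.01 in its brightest probe set, had the sign of SCARA3 and BLOC1S1 and not that of these 4.

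**Figure D4:**
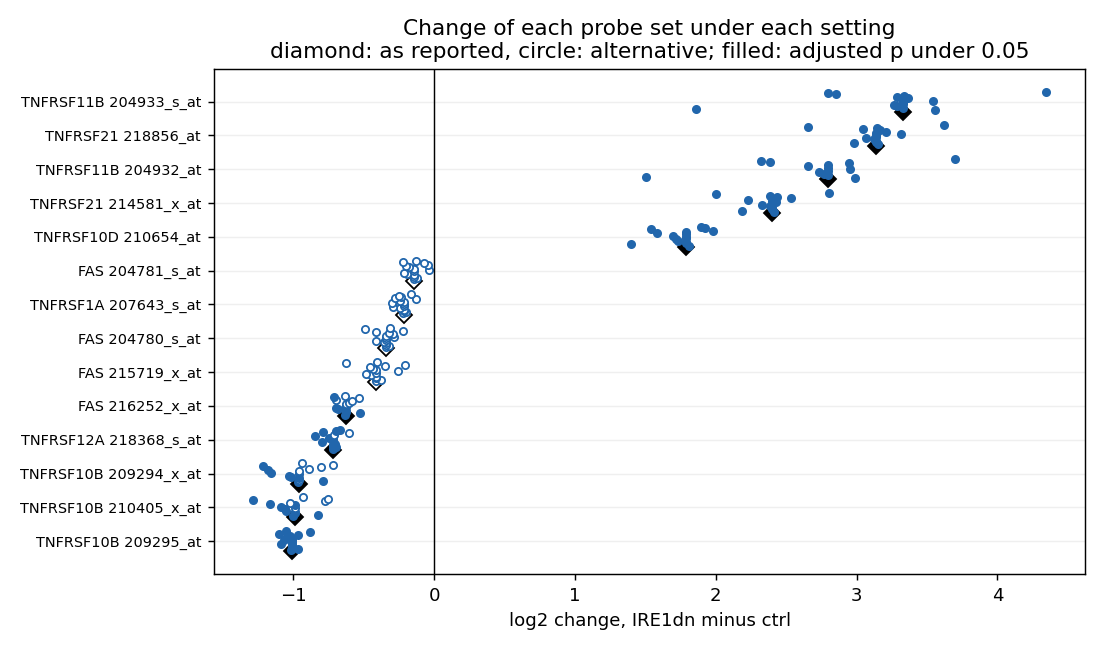
Log2 change, IRE1dn minus ctrl (horizontal axis), of each tested member probe set as reported (diamond) and under each alternative (circles), filled where the adjusted p was under 0.05. No probe set changed direction. TNFRSF11B moved most, between 1.86 and 4.34 for probe set 204933_s_at.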

How the data were processed

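Total RNA of 6 U87 samples was measured on Affymetrix arrays. The deposited values are linear intensity values, 22277 probe sets on each array, and GCOS 1.2 made them per the submitters' processing notes. The summarisation algorithm is not given in the sources used here. Scaling had been done before deposit, since every array had a mean of 100.0 after 2% of its values were trimmed at each end. Precision is limited by the number of arrays.

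Values were taken as log2(signal + 1.75), where 1.75 is the 20th percentile of all values. Probe sets with a mean above the 40th percentile (7.55 units) were tested in R 4.3.3 with lmFit and trended eBayes of limma 3.58.1 (two-sided, Benjamini-Hochberg over 13329 probe sets, threshold 0.05). Log2 changes understate the change of dim probe sets. Gene symbols came from the platform annotation: 19064 probe sets had 1 symbol, 1043 several and 2108 none, and 19052 of the 19064 matched RefSeq (GRCh38.p14) by identifier. All member probe sets are named. List genes use the probe set that is brightest on average, and up to 4 called genes per list without overlap between groups are named. The members and lists were chosen with earlier results of these data known. The alternatives changed the pseudocount, the filter, the scaling, the probe set per gene or the variance model, added a replicate block, or left out 1 array.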

Additional observations from a re-analysis of the deposited data

How the results depend on the processing

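In 215 alternative values of the 14 tested member probe sets no direction turned and 21 calls ended, all of them in TNFRSF10B (210405_x_at and 209294_x_at), FAS (216252_x_at) and TNFRSF12A. The number of member probe sets called higher was 5 as reported, 3 with a 60th percentile filter, which left TNFRSF11B out, and 5 with any array left out. With 1 probe set per gene or the mean of the probe sets of each gene, 3 member genes were called higher and 2 lower. The number of member probe sets called lower was 5 as reported, 2 without a filter and 1 to 4 with an array left out: 1 without IRE1dn replicate 2 or 3, 3 without ctrl replicate 2 and 2 without ctrl replicate 3. No pairing by replicate number was seen, since the deviations of same-numbered arrays correlated at -0.12, 0.04 and 0.00. With so few arrays such values cannot settle whether samples were paired. With the replicate block 3 member probe sets were called lower. Over all probe sets 2093 were called higher and 1783 lower. With an array left out these counts were 1134 to 2227 and 1005 to 1822. With 1 probe set per gene they were 1283 and 1185, and with the mean of the probe sets of each gene 1171 and 1160. Fewer features or arrays were tested in those settings. Of 298 alternative values of the 19 called list genes, 24 ended the call and none turned.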
